A study of Mus musculus with 16 samples.

Results

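The comparison described here asked what the Srsf2 P95H mutation was accompanied by when it was added to an Asxl1 transgene. Its members are the 8 libraries, of 16 in the series, whose genotype labels carry Asxl1Y588XTg: 4 also carry Srsf2P95H/+ (called DM, for double mutant) and 4 do not (called Asxl1Tg). All genes were tested in them. The other 8 libraries, 4 from wild-type mice (WT) and 4 from mice with Srsf2P95H/+ alone (called Srsf2P95H), served as a separate pair in which the same Srsf2 change was made without the transgene. Every library came from the bone marrow of 1 C57BL/6 mouse, from cells purified on beads as lineage-negative, c-Kit-positive and Sca-1-positive (LSK). The genotype names give 1 copy of the Srsf2 mutation (P95H over the unmutated allele) and an Asxl1 transgene ending at Y588X. Which promoter drives the transgene, whether a Cre was used, and how old and of which sex the mice were is not stated in the labels. The design text counts 3 mice with both mutations, but 4 are labelled and have columns, and none was left out. The columns of the Asxl1Tg group are named by an abbreviation, and were assigned to it because every other group had columns under its own name.

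LSK cells are the fraction of mouse marrow that holds the haematopoietic stem cells and the earliest multipotent progenitors. SRSF2 is a serine/arginine-rich splicing factor that binds short exonic sequences and promotes inclusion of the exon, and the P95H change alters which of those sequences it prefers. ASXL1 is a chromatin protein that works with the deubiquitinase BAP1 on histone H2A and is linked to Polycomb repression, and mutations that truncate it are frequently found beside SRSF2 mutations in myelodysplastic syndromes and related myeloid neoplasms. The deposited table holds counts per gene, so exon inclusion and isoforms were not analysed here.

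The double-mutant libraries were the deeper ones, with 113809918 to 127596225 counted reads against 85714283 to 102233355 in Asxl1Tg. Marker levels, given as counts scaled to each library's total (CPM), matched the labelled sort in part. Kit (699 to 1211 CPM) and Cd34 (773 to 1002 CPM) were high in all 8 libraries, Ly6a, which encodes Sca-1, lay between 23.3 and 52.6 CPM, and the T cell gene Cd3e (up to 0.15 CPM) was low. Mpo (1408 to 4459 CPM) and Elane (158 to 948 CPM), genes of granulocyte-monocyte progenitors, were also expressed, and Mpo was above Kit in all 8 libraries. The summed level of 19 B and plasma cell genes set Asxl1Tg 3 (2655 CPM against 321 to 611 CPM in the other 3) and DM 1 (1786 CPM against 430 to 1156 CPM) apart within their groups. Monocyte and macrophage genes had summed levels that overlapped between the groups (16 genes, 486 to 796 CPM in Asxl1Tg and 578 to 749 CPM in DM). Among them C1qa, a gene of resident macrophages, was at 24.8, 15.9, 2.11 and 9.66 CPM in Asxl1Tg and at 2.45, 1.80, 2.79 and 0.25 CPM in DM, which also overlap. Xist was expressed at a high level in 1 library of each of these groups, Asxl1Tg 3 and DM 1. The Y-linked gene Ddx3y was at 0 CPM in both and at 44.6 to 63.3 CPM in the others of the 8. Those are the levels of female and male mice.

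Asxl1 was counted at 218, 227, 233 and 235 CPM in the 4 Asxl1Tg libraries and at 218, 219, 229.8 and 236 CPM in the 4 DM libraries. These ranges overlap, the log2 fold change was -0.02 ± 0.06 (estimate ± standard error, SE, here and below), and the WT libraries lay at 213 to 227 CPM. Srsf2 itself was at 294, 230.2, 231 and 262 CPM in Asxl1Tg and at 230.3, 189.9, 179.9 and 214 CPM in DM. Its log2 fold change of -0.32 ± 0.12 did not pass the test (edgeR adjusted p = 0.155), and 15.6% and 9.74% of its exonic bases overlap Mettl23 and Mfsd11 on the other strand, whose reads may not be separable. Neither level shows which allele was transcribed, so gene counts do not check the genotypes.

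Adding Srsf2 P95H to the transgene was accompanied by changes in 245 of 22749 genes tested (1.08%), 193 higher in DM (0.848%) and 52 lower (0.229%). The test was edgeR's quasi-likelihood test with Benjamini-Hochberg adjustment over all genes and a threshold of 0.05, and these are the genes referred to as called. The rises were small and numerous, with a median log2 fold change of 0.43, while the falls were fewer and deeper, with a median of -0.73. Over all genes tested the median was -0.00. The change reached at least 2-fold in 23 of the genes that rose and 20 of those that fell. Of the genes that rose 182 were protein-coding by the annotation, and of those that fell 38 were. In each of the 245 genes the 4 DM libraries lay wholly above or wholly below the 4 Asxl1Tg libraries, an arrangement found in 11.5% of all genes tested (7.35% with DM higher and 4.16% with DM lower).

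The count rests on single libraries. It dropped to 10 without Asxl1Tg 1, to 17 without Asxl1Tg 4, to 24, 25 and 28 without DM 1, DM 2 and DM 4, and to 118 without DM 3, while it was 243 and 266 without Asxl1Tg 2 and Asxl1Tg 3. It was 17 with only the 8 libraries compared in the fit. The balance of higher against lower calls also moved with the setting: with another scaling, 193 against 52 became 32 against 54 (library sizes alone) and 36 against 41 (an offset for GC content), and with a stricter filter on low counts it became 136 against 120. The plot of calls under each setting shows all of these counts.

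**Figure D1:**
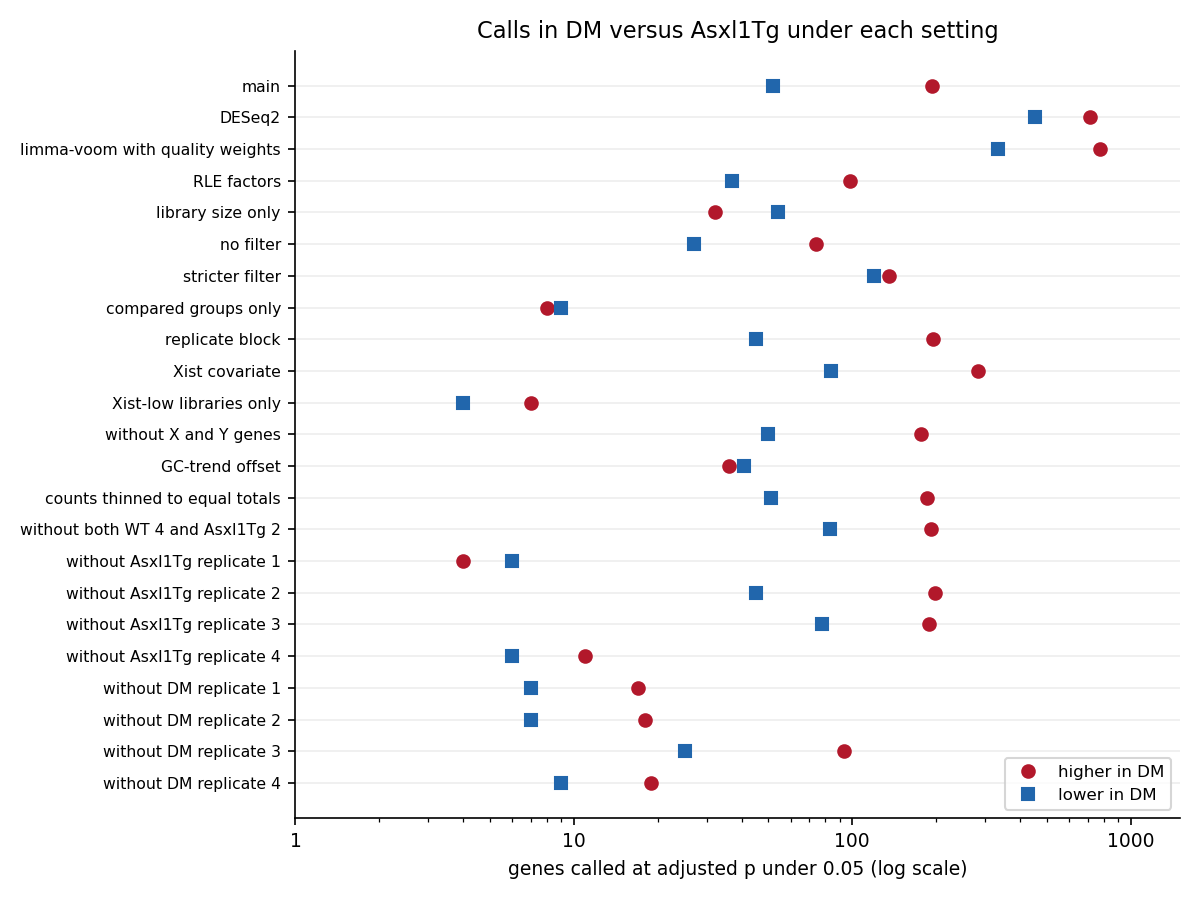
Number of genes called higher (red circles) and lower (blue squares) in DM versus Asxl1Tg, on a log axis, with 1 line for each way of running the test; "main" is the fit of all 16 libraries. The 193 higher and 52 lower calls fall to 4 and 6 without Asxl1Tg replicate 1 and stand at 714 and 454 in DESeq2.

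Of the 245 genes, 5 were called in every setting that tested them: Galns, Dmac2 and Nup210 were lower in DM, and Bgn and Synpo2 were higher. Bgn lies on the X chromosome and so had no value in the setting without X and Y genes. Galns (chromosome 8, 122578242-122611463, GRCm38 as annotated in GENCODE M21) encodes a lysosomal sulfatase that degrades keratan sulphate. It was at 26.3, 23.2, 27.4 and 29.5 CPM in Asxl1Tg and at 11.9, 11.3, 13.5 and 16 CPM in DM. The lowest Asxl1Tg library was well above the highest DM library, and Galns fell 2.02-fold (log2 -1.02 ± 0.11, adjusted p = 9.33e-04).

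Dmac2 (chromosome 7, 25619414-25625551), which takes part in assembling mitochondrial complex I, was at 31.6, 29.2, 27.8 and 30.9 CPM in Asxl1Tg and at 16.5, 17.8, 17.4 and 16.6 CPM in DM. It had the smallest adjusted p of all genes tested, 2.79e-04, with a 1.75-fold fall (log2 -0.81 ± 0.08). Nup210 (chromosome 6, 91013068-91116829) encodes a membrane glycoprotein of the nuclear pore and was at 1030.3, 874, 930.3 and 1018 CPM in Asxl1Tg and at 611, 629, 607 and 603 CPM in DM. The 4 DM values of Nup210 lie within a narrow band under all 4 Asxl1Tg values, a 1.57-fold fall (log2 -0.65 ± 0.08, adjusted p = 9.78e-04).

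Bgn (chromosome X, 73483602-73495933), the gene for the matrix proteoglycan biglycan, was at 16, 22.3, 22 and 17.4 CPM in Asxl1Tg and at 35, 48, 61.3 and 42.7 CPM in DM, a 2.41-fold rise (log2 1.27 ± 0.18, adjusted p = 0.00773). Genes of endothelium and stroma, cells that also make matrix proteins, had summed levels of 225 to 282 CPM in Asxl1Tg and 200 to 275 CPM in DM, which overlap. None of 17 was called, a common outcome for so few genes with 1.08% of all genes called. Synpo2 (chromosome 3, 123076519-123236149), an actin-associated protein, was at 11.5, 16.9, 18.3 and 15 CPM in Asxl1Tg and at 28.9, 31.2, 47 and 33.1 CPM in DM, a 2.27-fold rise (log2 1.18 ± 0.15, adjusted p = 0.00335). DM 3 held the highest value of both genes, and the lowest DM library was still above every Asxl1Tg library.

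**Figure D2:**
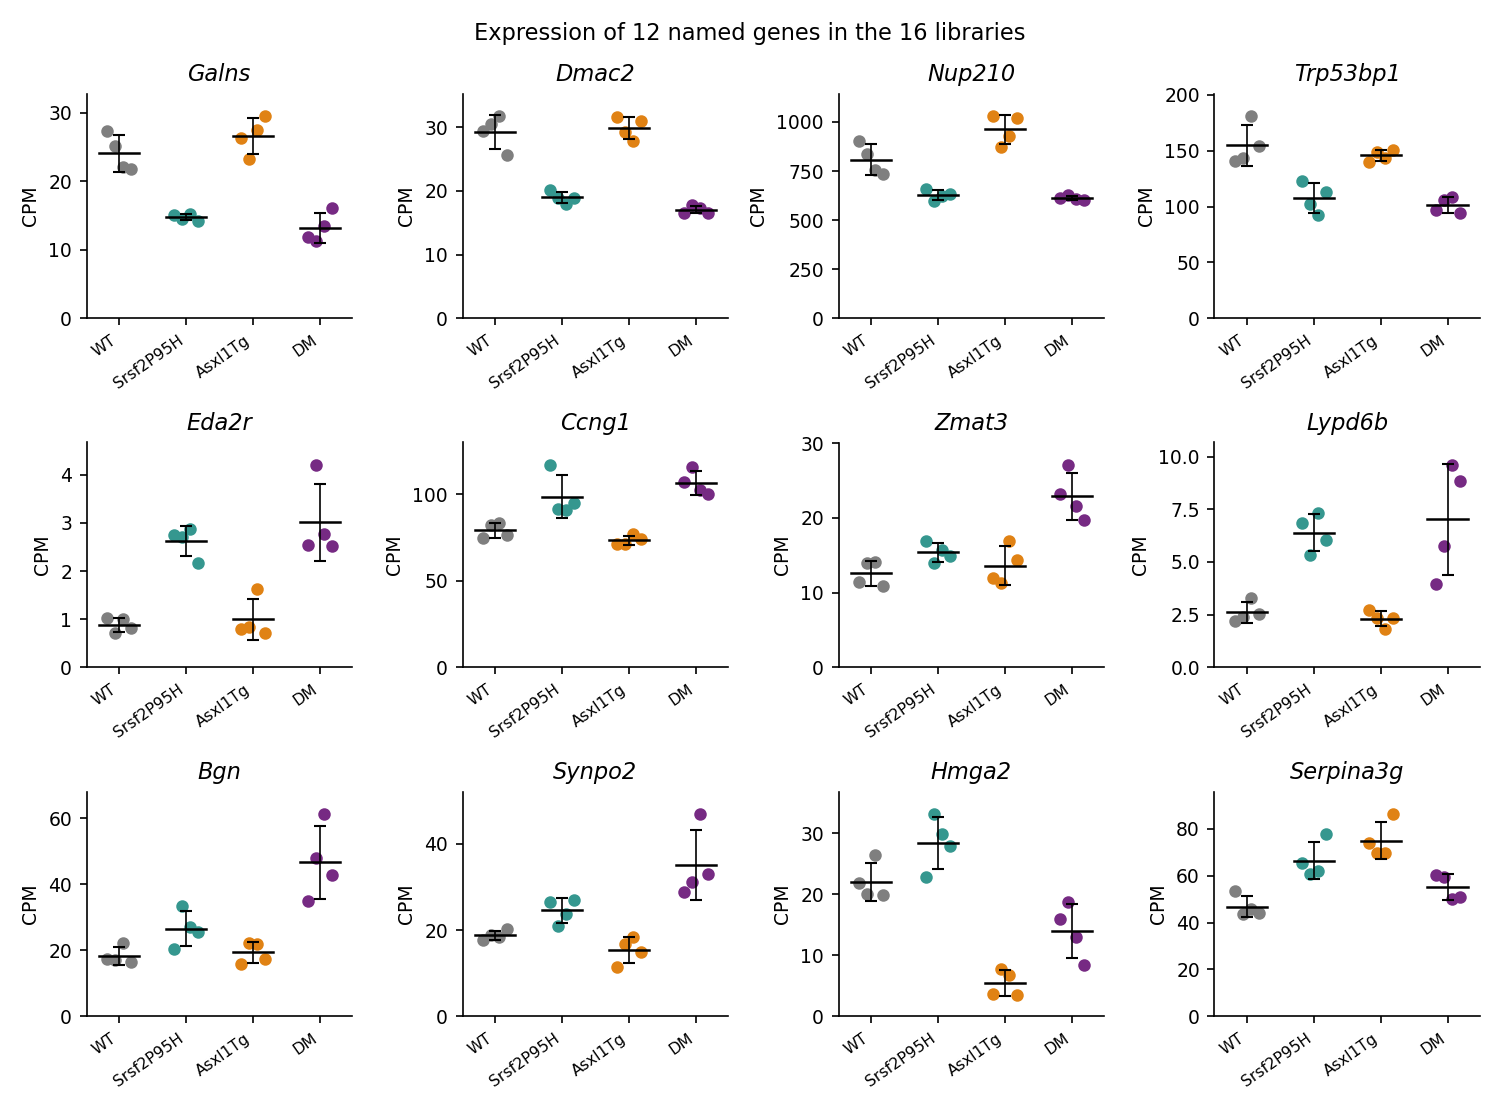
CPM of 12 genes in the 16 libraries; each dot is 1 library, the line is the group mean and the bar is ± 1 SD, with every axis starting at 0. Galns, Dmac2, Nup210 and Trp53bp1 are lower in both groups with the Srsf2 mutation (teal and purple) than in the groups without it, Eda2r and Lypd6b are higher in both, and Hmga2 is low in both groups with the transgene.

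The WT and Srsf2P95H libraries share no values with the 8 libraries above, so fold changes of the same mutation could be read there independently. The fit of all 16 libraries gave each gene a shared estimate of spread, so calls and SEs of that pair are not independent of those above. In that pair 115 genes (0.506%) were called, a count that also rests on single libraries: it was 0 without WT 3 and without Srsf2P95H 4, 1 without WT 4 and without Srsf2P95H 1, 26 without WT 2 and without Srsf2P95H 3, and 1638 and 1532 without WT 1 and Srsf2P95H 2. Xist was high in WT 1 (2173 CPM) and in Srsf2P95H 2 and 3 (2097 and 2312 CPM), so the sexes were not balanced in that pair. Of the 245 genes called in DM versus Asxl1Tg, 227 (92.7%) had the same sign there, 180 of the 193 that rose and 47 of the 52 that fell, while 63.2% of all genes tested had the same sign in both. The median log2 fold change in Srsf2P95H versus WT was 0.19 for the genes that rose in DM and -0.37 for those that fell, against -0.05 over all genes tested. In 94 of the 245 genes the WT and Srsf2P95H libraries were also fully separated in the same direction, and in 2 in the opposite direction, where 13.7% of all genes were separated in either. Across all genes tested the correlation of the log2 fold changes was 0.21, a description over genes that share libraries and are not independent.

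With all libraries in, both comparisons called 26 genes, which is 10.6% of the DM versus Asxl1Tg calls and 22.6% of the Srsf2P95H versus WT calls. Of these, 13 were higher and 13 lower in DM, and 25 had the same sign in both. Galns, Dmac2 and Nup210 are among them: their log2 fold changes in Srsf2P95H versus WT were -0.71 ± 0.11, -0.63 ± 0.08 and -0.36 ± 0.08. Fscn1, which encodes the actin-bundling protein fascin, was at 3.09, 2.48, 2.61 and 3.68 CPM in Asxl1Tg and at 1.13, 1.16, 1.74 and 0.814 CPM in DM. It fell by 2.44-fold here (adjusted p = 0.0352) and was at 2.98 to 6.92 CPM in WT and 1.22 to 1.63 CPM in Srsf2P95H. Rbks, the gene for ribokinase, was at 7.06, 7.2, 7.13 and 5.85 CPM in Asxl1Tg and 3.91, 3.6, 3.91 and 4.61 CPM in DM, with a log2 fold change of -0.76 ± 0.14 and one of -0.81 ± 0.14 without the transgene. Phka1, a regulatory subunit of phosphorylase kinase chosen after its values were seen, had log2 fold changes of -0.60 and -0.60. For Fscn1, Rbks and Phka1 the difference between the changes with and without the transgene was 0.41 (95% interval -0.38 to 1.21), 0.04 (95% interval -0.38 to 0.47) and 0.01 (95% interval -0.34 to 0.35). In DM versus Asxl1Tg, Fscn1 lost its call in 9 of 22 alternative runs, Rbks in 6 of 22 and Phka1 in 7 of 21.

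Lypd6b, a member of the family of LY6/PLAUR-domain surface proteins, rose in both. It was at 2.7, 2.34, 1.83 and 2.35 CPM in Asxl1Tg and at 3.97, 5.73, 9.6 and 8.83 CPM in DM, a 3.05-fold rise (log2 1.61 ± 0.24, adjusted p = 0.00894). In the libraries without the transgene it was at 2.18 to 3.3 CPM in WT and 5.35 to 7.34 CPM in Srsf2P95H (log2 1.30 ± 0.24). Psma8, a proteasome subunit known from testis, and Ric3, a chaperone of acetylcholine receptors, were both chosen after their values were seen. Psma8 rose 2.01-fold in DM (9.26 ± 1.26 against 4.61 ± 1.03 CPM, mean ± SD, n = 4 each) with log2 fold changes of 1.01 with the transgene and 0.96 without it. Ric3 rose 1.83-fold (7.81 ± 0.862 against 4.27 ± 0.679 CPM), with log2 fold changes of 0.87 and 0.85. In DM versus Asxl1Tg, Psma8 lost its call in 12 of 22 alternative runs, Ric3 in 10 and Lypd6b in 1.

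Serpina3g, a serine protease inhibitor of haematopoietic cells, was the 1 gene of the 26 that moved in opposite directions. It was at 73.8, 69.7, 69.7 and 86.3 CPM in Asxl1Tg and at 60.4, 59.6, 50.2 and 50.9 CPM in DM, lower in every DM library (log2 -0.44 ± 0.10, adjusted p = 0.0452). Without the transgene it was at 53.5, 43.7, 45.7 and 44.1 CPM in WT and at 65.2, 60.8, 61.9 and 77.8 CPM in Srsf2P95H, higher in every mutant library (log2 0.51 ± 0.10, adjusted p = 0.0379). The difference between the 2 changes, tested as an interaction, was -0.95 (95% interval -1.24 to -0.65), with an edgeR adjusted p of 0.0851. The call of Serpina3g in DM versus Asxl1Tg was lost in 9 of 22 alternative runs.

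**Figure D3:**
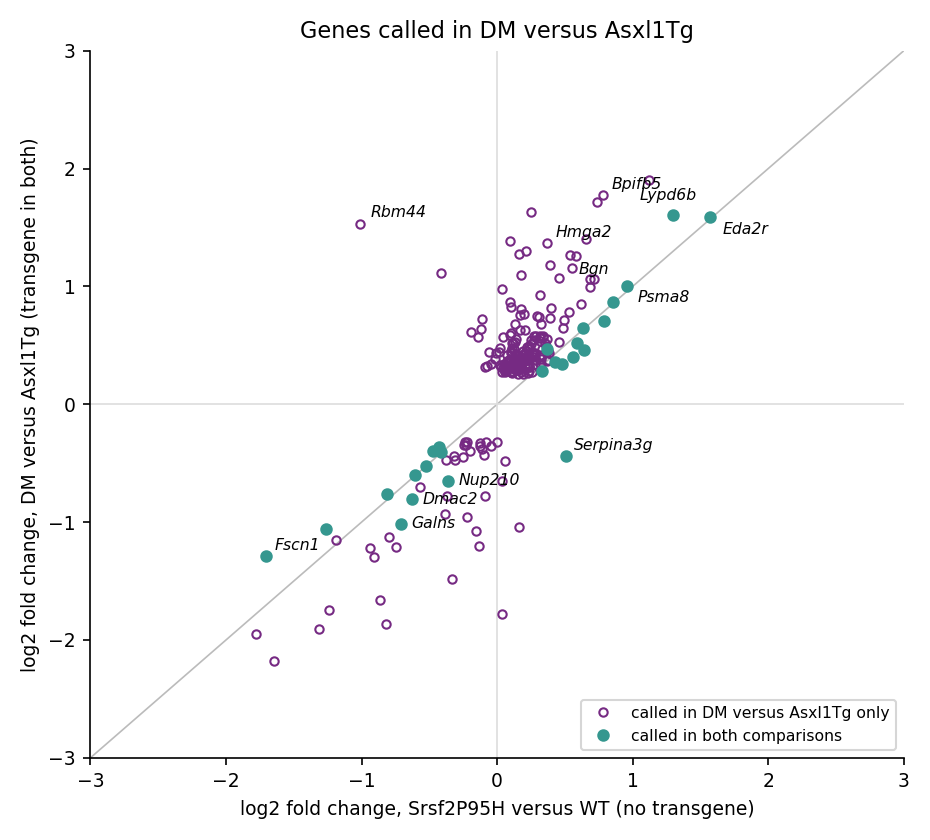
Log2 fold change of genes called in DM versus Asxl1Tg (y axis) against their log2 fold change in Srsf2P95H versus WT (x axis), which uses none of the same libraries; filled points were called in both, the grey diagonal marks equal change, and 2 genes beyond the axis limit of 3 are not drawn. Most of the 245 genes lie at the lower left and upper right, and Serpina3g is the filled point in the lower right.

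No gene passed the edgeR test of the interaction, which asks whether the Srsf2 change differed between the backgrounds. At an unadjusted p under 0.05 there were 2670 genes (11.7%), among them 100 of the 245 called in DM versus Asxl1Tg. The interaction contains the DM minus Asxl1Tg difference that selected the 245, so their share is partly fixed by that selection. DESeq2 called 52 genes and limma-voom 4. The interaction is less precise than either comparison: its median SE was 0.14 over the 9452 genes above 10 CPM, against 0.10 for DM versus Asxl1Tg. After Serpina3g, the genes with the smallest p were Mc5r, Matn4, Rbm44 and Tmprss4. Mc5r, a melanocortin receptor, was at 68.6, 78, 81 and 56.2 CPM in Asxl1Tg and at 119, 111, 99.7 and 103 CPM in DM, and at 92.1 to 98.9 CPM in WT and 76.8 to 95.2 CPM in Srsf2P95H, an interaction of 0.80 (95% interval 0.50 to 1.09) with an adjusted p of 0.245. Rbm44, an RNA-binding protein gene, was higher in DM (3.79, 2.87, 3.32 and 6.93 CPM) than in Asxl1Tg (1.72, 0.81, 1.74 and 1.57 CPM), whereas without the transgene Srsf2P95H (1.02 to 2.26 CPM) lay below WT (2.54 to 4.57 CPM), an interaction of 2.54 (95% interval 1.56 to 3.53). Matn4, which encodes the matrix protein matrilin, was at 1.67 to 6.52 CPM in Asxl1Tg, 1.73 to 3.64 CPM in DM, 1.25 to 2.05 CPM in Srsf2P95H and 0.188 to 0.36 CPM in WT, an interaction of -2.87 (95% interval -3.96 to -1.77). The low level was confined to WT among these 4 groups for Matn4. Tmprss4, a membrane serine protease, stayed under 0.70 CPM in every library and had an interaction of 3.83 (95% interval 2.32 to 5.35).

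p53 is a transcription factor that is stabilised after DNA damage and other stress and switches on genes for cell cycle arrest, apoptosis and repair. Among 25 tested p53 targets, 3 were called higher in DM (12%, against 0.848% of all genes) and none lower, with a list median of 0.12. Ccng1, Eda2r and Zmat3 were the 3, in a list chosen with earlier results of these data known. Without Asxl1Tg 1 and without DM 2 none of the 25 was called, without Asxl1Tg 4 only 1 was, and without DM 1 there were 2. In 7 of the 25 (28%) the DM libraries lay above all Asxl1Tg libraries, against 7.35% of all genes tested. Stretches of RefSeq promoter sequence (GRCm38.p6) are shown because they belong to the called p53 targets found in the promoter table; each covers positions -250 to -101 from the start site, read 5′ to 3′ on the minus strand, and capitals mark the match to the decamer of the p53 response element.
Ccng1, chr11:40755387-40755536: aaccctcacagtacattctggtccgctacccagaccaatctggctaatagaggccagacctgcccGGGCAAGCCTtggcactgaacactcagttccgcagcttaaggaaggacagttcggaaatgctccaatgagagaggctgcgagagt
Eda2r, chrX:97377310-97377459: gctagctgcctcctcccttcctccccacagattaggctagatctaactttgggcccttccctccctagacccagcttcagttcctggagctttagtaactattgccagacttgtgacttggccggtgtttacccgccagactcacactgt
In the whole 300 bases from 250 before to 50 after the start site, Ccng1 had 1 match, at position -185, and Eda2r had none. The decamer, which reads the same on both strands and was searched with no other motif, was found in 8.36% of 32851 promoters of that length, and in those of 10 of the 20 tested p53 targets with an entry. A match is a match of letters and was not tested for binding. The list was made of p53 targets whatever their change here, so its share of matches says nothing about DM versus Asxl1Tg.

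Ccng1 (chromosome 11, 40748552-40755311), the gene for cyclin G and a p53 target, was at 71.3, 71.1, 76.8 and 74.1 CPM in Asxl1Tg and at 107, 115, 102 and 100.1 CPM in DM. The groups were far apart relative to their spread, and Ccng1 rose 1.45-fold (log2 0.54 ± 0.08, adjusted p = 0.00886). In the pair without the transgene it was at 74.7 to 83.5 CPM in WT and 91 to 117 CPM in Srsf2P95H, not overlapping (log2 0.32 ± 0.08, adjusted p = 0.0552). Eda2r (chromosome X, 97333840-97377216) encodes a receptor of the tumour necrosis factor receptor family and was at 0.806, 0.843, 1.63 and 0.72 CPM in Asxl1Tg and at 2.55, 4.2, 2.77 and 2.53 CPM in DM. It was low but rose 3.01-fold (log2 1.59 ± 0.26, adjusted p = 0.0121), with the highest Asxl1Tg value, in replicate 3, still under every DM value. The change without the transgene was log2 1.57 ± 0.26, an interaction of 0.02 (95% interval -0.76 to 0.80), and Eda2r was at 0.708 to 1.02 CPM in WT and 2.17 to 2.88 CPM in Srsf2P95H.

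Zmat3 (chromosome 3, 32334792-32366014), a p53 target that encodes an RNA-binding zinc finger protein, was at 11.9, 11.3, 16.9 and 14.3 CPM in Asxl1Tg and at 23.2, 27.1, 21.6 and 19.7 CPM in DM. Its 1.68-fold rise (log2 0.75 ± 0.14, adjusted p = 0.0195) compares with 0.29 ± 0.14 without the transgene. The interaction of 0.46 (unadjusted 95% interval 0.05 to 0.86) did not pass the test (edgeR adjusted p = 0.397). Cdkn1a and Mdm2, both widely used as readouts of p53, were not called. Cdkn1a, the cell cycle inhibitor p21, had 16.3 ± 6.8 CPM in DM and 20.5 ± 6.16 CPM in Asxl1Tg, and Mdm2, the ubiquitin ligase of p53, had 52.1 ± 2.76 and 50.3 ± 7.47 CPM. Phlda3 (log2 0.83 ± 0.26, adjusted p = 0.116) and Trp53inp1 (log2 0.81 ± 0.21, adjusted p = 0.0678) did not pass. Trp53 itself, which encodes p53, had 266 ± 18.4 CPM in DM and 259 ± 16.5 CPM in Asxl1Tg (log2 0.04 ± 0.07).

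Of 26 tested genes of DNA damage and repair, 2 fell in DM (7.69%, against 0.229% of all genes) and none rose, with a list median of 0.07. That count was 0 without Asxl1Tg 1, Asxl1Tg 4, DM 1, DM 2 or DM 4, each left out alone, and 1 without any of the other 3, and the median ranged from -0.01 (without DM 1) to 0.13 (without DM 3). Trp53bp1 (chromosome 2, 121193281-121271407) encodes a chromatin reader that directs the repair of broken DNA towards end joining. It was at 139.9, 149, 144 and 151 CPM in Asxl1Tg and at 97.3, 106, 108 and 93.9 CPM in DM. All DM libraries were below all Asxl1Tg libraries, a 1.44-fold fall (log2 -0.52 ± 0.09, adjusted p = 0.0148), and the change without the transgene was -0.52 ± 0.09 (adjusted p = 0.0236), an interaction of 0.00 (95% interval -0.27 to 0.27). Tubgcp4, which overlaps 15% of its exonic bases on the other strand, had a log2 fold change of 0.01.

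Hmga2 (chromosome 10, 120361275-120476469) encodes a chromatin architectural protein that is high in fetal and low in adult stem cells. It was the 1 called member of both the stem cell list (25 tested, 4% called) and the list of fetal regulators and imprinted growth genes (17 tested, 5.88% called). Over all genes tested 1.08% were called, so 1 call in lists this short says little about them. Hmga2 was at 3.74, 7.78, 6.83 and 3.43 CPM in Asxl1Tg and at 15.9, 18.8, 13 and 8.48 CPM in DM. The lowest DM library, replicate 4, was just above the highest Asxl1Tg library, and the mean rose 2.58-fold (log2 1.37 ± 0.27, adjusted p = 0.0269). This call was lost without Asxl1Tg 1, Asxl1Tg 4, DM 1, DM 2 or DM 3. Both groups lay under the WT libraries (19.8 to 26.4 CPM) and the Srsf2P95H libraries (22.9 to 33.2 CPM). The remaining 24 stem cell genes were not called: Hlf, a transcription factor of stem cells, was at 380.3 ± 49 CPM in DM and 263 ± 56.2 CPM in Asxl1Tg (log2 0.53 ± 0.19, adjusted p = 0.154), and Angpt1, a niche ligand that stem cells also express, at 378 ± 42.5 and 278 ± 54.5 CPM. The stem cell list median was 0.29 against -0.00 over all genes, and 22 of 25 members had a positive sign.

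Among the other genes with the largest rises, several had a mean in Asxl1Tg below those of both DM and WT. Serpini1, the gene for neuroserpin, was at 3.89, 7.08, 4.52 and 3.65 CPM in Asxl1Tg, 9.75, 8.71, 13.3 and 9.71 CPM in DM and 10.1 to 17.3 CPM in WT (log2 1.12 ± 0.22). Ptgds, a prostaglandin D synthase, was at 0.72 to 1.11 CPM in Asxl1Tg, 1.93 to 3.13 CPM in DM and 1.44 to 2.05 CPM in WT (log2 1.39 ± 0.21). Fhit, a nucleotide hydrolase at a fragile site, was at 0.613 to 1.13, 1.81 to 2.33 and 1.05 to 2.28 CPM in the same order (log2 1.27 ± 0.26). The Asxl1Tg and WT ranges of Fhit overlap, and the mean of Ptgds was higher in DM (2.41 CPM) than in WT (1.69 CPM). In these 3 genes the change without the transgene was -0.42, 0.10 and 0.16, none of them called. In DM versus Asxl1Tg, Serpini1 and Fhit each lost their call in 10 of 22 alternative runs and Ptgds in 2. The differences of Asxl1Tg from WT and from DM use the same 4 Asxl1Tg libraries, so they are given as levels only.

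Bpifb5, a member of the BPI-fold family of lipid-binding proteins, had the largest fold change of the called genes named here, from 0.89, 1.73, 1.52 and 0.992 CPM in Asxl1Tg to 3.26, 5.18, 4.56 and 4.55 CPM in DM (log2 1.77 ± 0.28, adjusted p = 0.0121). Cxcr1, an interleukin-8 family chemokine receptor, rose from 0.691 to 1.3 CPM to 1.99 to 3.38 CPM (log2 1.63 ± 0.38, adjusted p = 0.0466). Tslp, the cytokine thymic stromal lymphopoietin, rose from 0.671 to 1.18 CPM to 1.82 to 2.28 CPM (log2 1.16 ± 0.26, adjusted p = 0.043). All 3 were under 6 CPM in every library of both groups. Of 22 alternative runs, Cxcr1 and Tslp each lost their call in 13 and Bpifb5 in 3.

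Among the falls, Gper1, a membrane oestrogen receptor, went from 4.9, 3.56, 2.63 and 3.38 CPM in Asxl1Tg to 0.936, 1.61, 1.45 and 1.18 CPM in DM (log2 -1.48 ± 0.31, adjusted p = 0.0321). Fzd8, a Wnt receptor, was at 12.4, 13, 11.3 and 11.8 CPM in Asxl1Tg and at 6.87, 5.78, 6.26 and 4.7 CPM in DM, with WT at 4.76 to 10.2 CPM (log2 -1.04 ± 0.23, adjusted p = 0.0431). Kctd17, an adaptor of a ubiquitin ligase, was at 30.5, 25.6, 25.3 and 33.3 CPM and 15.5, 17.5, 18.8 and 15 CPM (log2 -0.78 ± 0.11, adjusted p = 0.00886), and Rnf157, a ubiquitin ligase, at 37.4, 37.5, 30.1 and 41.3 CPM and 18.9, 23.8, 21.2 and 26 CPM (log2 -0.70 ± 0.13, adjusted p = 0.0219). Both genes were also lower in every Srsf2P95H library than in every WT library (-0.37 and -0.57). Spata5l1 (log2 -0.78 ± 0.18) and Spag4 (log2 -0.65 ± 0.14) were also among the 12 largest falls among annotated genes that reached 2 CPM in Asxl1Tg, with -0.09 and 0.04 in Srsf2P95H versus WT, not called. Of 22 alternative runs, the fall lost its call in 14 for Spata5l1, 11 for Spag4 and 11 for Fzd8. It did so in 10 for Gper1, 6 for Rnf157 and 1 for Kctd17.

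At the level of gene counts, none of 27 SR protein and hnRNP genes (median 0.03, and -0.05 to 0.09 with 1 library of the 8 left out) and none of 30 core spliceosome and splicing kinase genes (median -0.07, and -0.11 to -0.02) was called. With 1.08% of all genes called, no call is a common outcome for lists of this size. Hnrnpa2b1, an RNA-binding protein whose transcript is a reported target of mutant SRSF2 and which was chosen after its values were seen, was at 874, 771, 848 and 743 CPM in Asxl1Tg and at 1196, 992, 852 and 982 CPM in DM. These overlap and the change of 0.31 ± 0.09 was not called (adjusted p = 0.104), while without the transgene it was called at 0.47 ± 0.09. Of 20 transcripts reported as splice targets of mutant SRSF2, 1 was called (5%, against 1.08% of all genes), the transcription factor Atf2. Atf2 was at 82.9, 80.7, 81.4 and 72.6 CPM in Asxl1Tg and at 104, 99.5, 97.6 and 108 CPM in DM (log2 0.37 ± 0.06, adjusted p = 0.0121), a call lost without Asxl1Tg 1, Asxl1Tg 4, DM 1 or DM 4. Ezh2, the Polycomb methyltransferase among those targets, was at 161 ± 20.3 CPM in DM and 134 ± 8.82 CPM in Asxl1Tg (log2 0.27 ± 0.08, adjusted p = 0.118). Beyond the list, Akap8 and Safb2, nuclear proteins that bind RNA or chromatin and were chosen after their values were seen, fell by log2 -0.47 and -0.34 in DM (adjusted p = 0.00886 and 0.0451). Safb2 lost its call in 15 of 22 alternative runs, including each run without 1 library of the 8, and Akap8 in 1.

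Of 31 cytosolic ribosomal protein genes, 1 was called (3.23%, against 1.08% of all genes), Rpl22. All 31 had positive log2 fold changes, with a median of 0.17 and a range of 0.05 to 0.40. In 15 (48.4%) every DM library was above every Asxl1Tg library, against 7.35% of all genes. Rpl22, a component of the large subunit, was at 287, 334, 361 and 288 CPM in Asxl1Tg and at 426, 433, 399 and 419 CPM in DM (log2 0.40 ± 0.09, adjusted p = 0.0396), a call lost without any 1 library other than Asxl1Tg 2 or Asxl1Tg 3. The same list had a median of 0.18 in Srsf2P95H versus WT. Ribosomal protein genes have many processed pseudogenes, between which reads may be split. Genes of MYC-driven ribosome biogenesis (24 tested, none called) had a median of -0.16 in DM versus Asxl1Tg, which was -0.06 without Asxl1Tg 4 and -0.10 without DM 3. All 24 genes of mitosis had positive values, with a median of 0.21 (0.13 without Asxl1Tg 2), and none was called. Stard4, a cholesterol carrier, was the 1 called of 18 genes of cholesterol synthesis (5.56%, against 1.08% of all genes). It was at 81.7, 96.5, 88.5 and 67.4 CPM in Asxl1Tg and 114, 124, 112 and 108 CPM in DM (log2 0.45 ± 0.09), a call lost without Asxl1Tg 1, Asxl1Tg 4, DM 1, DM 2 or DM 4. As above, 1 call in a list this short says little about the list.

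The lists of lineage genes held no called member. Of all genes tested 1.08% were called, so no call is common in lists as short as those of this paragraph. Genes of granulocyte-monocyte progenitors (17 tested) had a median of 0.33 and those of megakaryocytes and platelets (18 tested) one of 0.36, with 13 and 15 members positive. With 1 library left out these medians ranged from 0.17 (without Asxl1Tg 2) to 0.46 and from 0.13 (without Asxl1Tg 1) to 0.60 (without Asxl1Tg 3). Lymphoid priming genes (20 tested) had a median of -0.09, which turned to 0.16 without Asxl1Tg 2 and to 0.07 without DM 1 and was -0.20 without DM 3. Genes of the Asxl, Bap1 and Polycomb complexes (29 tested) had a median of -0.02 (-0.06 to 0.00 with 1 library left out) and interferon-stimulated genes (28 tested) one of 0.19 (0.10 to 0.25, the lowest without Asxl1Tg 1), again with no call. The 12 tested genes of the mitochondrial genome had a median of 0.33, all positive and none called, and took 0.876 ± 0.142% of counts in DM and 0.721 ± 0.0901% in Asxl1Tg (SD, n = 4 each, two-sided exact permutation p = 0.114); the median was 0.11 without DM 1. The 16 monocyte and macrophage genes had a median of -0.45 (-0.28 without Asxl1Tg 1). C1qc, C1qa and C1qb, which encode the complement protein of resident macrophages, had -2.90, -2.85 and -2.77 with SEs of at least 1.09 and were not called, while 7 of the 16 had positive values. The 24 immediate-early genes, which respond within minutes to handling and signals, all had negative values with a median of -0.87, and none was called; the median was -0.37 without Asxl1Tg 2. Jun was at 485 ± 109.5 CPM in DM and 1014 ± 607 CPM in Asxl1Tg, where the SD shows how far the Asxl1Tg libraries differed among themselves. The mean log2 CPM of the 24 was 4.81 to 5.64 in DM and 5.10 to 7.02 in Asxl1Tg, and these ranges overlap (two-sided exact permutation p = 0.143). The part of macrophage RNA or of the immediate-early response in the other changes was not tested.

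**Figure D4:**
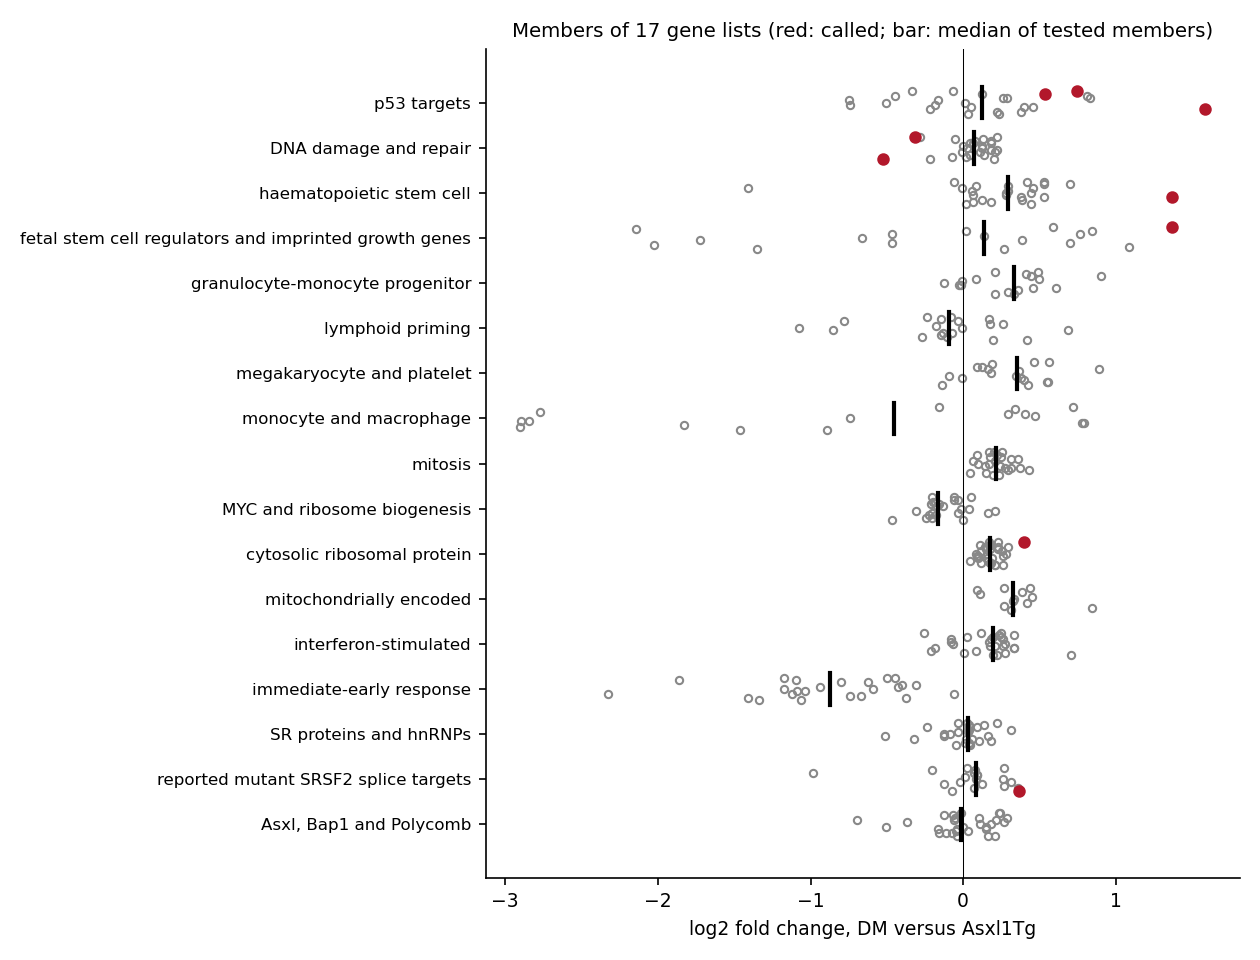
Log2 fold change in DM versus Asxl1Tg of the tested members of 17 gene lists; each point is 1 gene, red points were called and black bars are list medians. The p53 targets hold 3 red points on the right and the DNA repair genes 2 on the left, and all 24 immediate-early genes lie left of 0 without a call.

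The base composition of transcripts moved with this comparison. Called genes that rose had a median GC content of 42.9% in their longest transcript and called genes that fell one of 53.9%, against 49% over all genes tested. Among the genes above 10 CPM, those in the fifth with the lowest GC content had a median log2 fold change of 0.20 with 91 called higher and 0 lower, and those in the fifth with the highest GC content had a median of -0.06 with 1 called higher and 13 lower. The correlation of log2 fold change with GC content across these genes was -0.43, and it was -0.09 in Srsf2P95H versus WT. Each library's own correlation with GC content was -0.280 to 0.039 in DM and 0.118 to 0.388 in Asxl1Tg, which do not overlap (two-sided exact permutation p = 0.0286, the smallest that 4 against 4 libraries can give, and 0.214 adjusted over 15 library measures). Total counts did not overlap between the groups either (two-sided exact permutation p = 0.0286, adjusted 0.214).

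With a GC trend removed from every library, 77 genes were called, 36 higher and 41 lower, and 58 of them are among the 245. Galns, Dmac2, Nup210, Bgn, Synpo2, Trp53bp1, Eda2r and Zmat3 kept their calls, while Ccng1, Hmga2, Atf2, Rpl22 and Stard4 did not. Bpifb5, Lypd6b, Ptgds, Kctd17, Rbks, Rnf157, Phka1, Akap8, Serpina3g and Mc5r also kept theirs. Fscn1, Rbm44, Gper1, Cxcr1, Tslp, Fhit, Serpini1, Fzd8, Psma8, Ric3, Safb2, Spag4 and Spata5l1 lost theirs too. The log2 fold change of Hmga2 was 1.25 under that setting against 1.37 without it, and that of Rpl22 0.34 against 0.40. It was 0.34 against 0.54 for Ccng1, 0.17 against 0.37 for Atf2 and 0.30 against 0.45 for Stard4. Among the other lost calls, it was -1.07 against -1.04 for Fzd8 and 0.96 against 1.16 for Tslp. Of the 77, 69 (89.6%) had the same sign in Srsf2P95H versus WT, against 61.5% of all genes under that setting. With all libraries thinned to the smallest total, 236 genes were called, 224 of them among the 245. The part of GC content in the remaining calls was not tested.

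**Figure D5:**
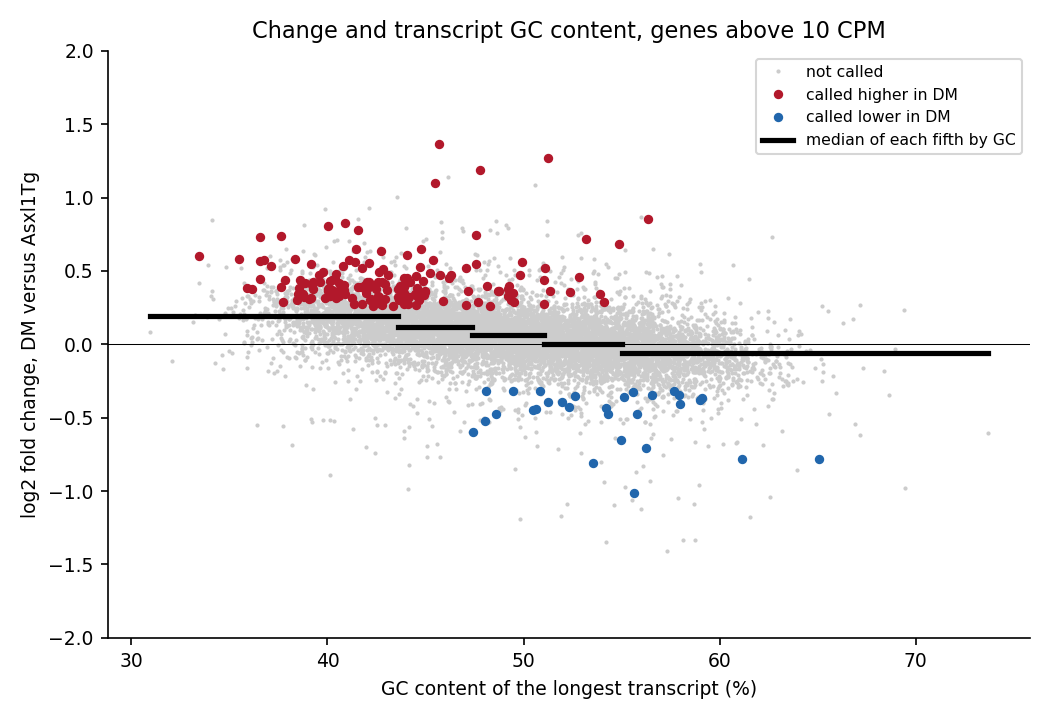
Log2 fold change in DM versus Asxl1Tg against GC content of the longest transcript for 9319 genes above 10 CPM (5 genes beyond the axis limit of 2 are not drawn); grey points were not called, red and blue points were called higher and lower, and black bars are medians of 5 GC bins of equal gene number. The medians step down from 0.20 to -0.06, and the red points gather at low and the blue points at high GC content.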

How the data were processed

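RNA-seq of bone-marrow LSK cells from 16 mice was analysed from 1 deposited table of 55291 genes. Its values are read counts per gene, which the authors made, per the submitters' processing notes, with FastQC, Trimmomatic 0.38, STAR 2.7.0e and HTSeq 0.11.2 on mm10; neither the gene annotation nor the strand setting is given there. Libraries were made with the NEB Ultra RNA kit, per the labels' protocols. The labels state individual mice, and no 2 libraries of a group agreed within sampling noise.

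From these counts, genes were kept with edgeR's filterByExpr (minimum count 10), leaving 22749, and scaled by TMM. edgeR 4.0.16 (R 4.3.3) fitted a robust quasi-likelihood model to the 16 libraries, with contrasts for DM minus Asxl1Tg, Srsf2P95H minus WT and their difference. Adjustment was by Benjamini-Hochberg across the 22749 genes (threshold 0.05). CPM use the TMM-scaled library sizes, and SE is the log2 fold change over the square root of its F statistic. The median SE was 0.24 over all genes and 0.0981 for the 9452 above 10 CPM. The scripts were tested on simulated data.

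Named genes are Asxl1 and Srsf2, the 12 largest rises and falls among called genes that do not overlap between groups and reach 2 CPM, called members of 48 gene lists and the 5 smallest interaction p-values; the rest were chosen after their values were seen, as stated. The members and lists were chosen with earlier results of these data known. Coordinates are from GENCODE M21 (GRCm38), matched by symbol, and promoters from RefSeq. Alternatives were DESeq2 1.42.0, limma-voom (limma 3.58.1), other scalings and filters, Xist level, a replicate block and leaving out each library. Those for GC content, thinned counts and the pair WT 4 and Asxl1Tg 2 were added after seeing the data. Some genes that the rule selects are not reported here.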

Additional observations from a re-analysis of the deposited data

Results flagged for a closer look

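Among 118 sets of 4 libraries checked for a library far from the other 3 (DM and Asxl1Tg, over the named genes and 15 library measures), 7 stood out, where chance alone sets about 1 in 20 apart. Eda2r was at 1.63 CPM in Asxl1Tg 3 against 0.720 to 0.843 CPM in the other 3 libraries of its group, and at 4.20 CPM in DM 2 against 2.53 to 2.77 CPM. Rbks was at 5.85 CPM in Asxl1Tg 4 against 7.06 to 7.20 CPM. The summed level of erythroid genes was 913 CPM in Asxl1Tg 3 against 442 to 519 CPM, and that of B and plasma cell genes was 2655 CPM in the same library against 321 to 611 CPM. Mast cell and basophil genes summed to 1069 CPM in Asxl1Tg 4 against 1437 to 1510 CPM. The TMM factor of DM 3 was 1.02 against 0.953 to 0.964 in the other DM libraries. Without Asxl1Tg 3 the number of genes called in DM versus Asxl1Tg was 266, against 245 with it.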

How the results depend on the processing

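For DM versus Asxl1Tg the count of 245 called genes became 1168 with DESeq2, 1112 with limma-voom, 135 with RLE factors, 86 with library sizes alone, 101 with no filter, 17 with only the compared libraries, 11 with only the Xist-low libraries and 77 with the GC-trend offset. Leaving out 1 library at a time gave 10 to 266. For Srsf2P95H versus WT the count of 115 became 2602 with DESeq2, 1703 with limma-voom, 217 with library sizes alone, 202 with the stricter filter, 2 with only the compared libraries, 56 with Xist level as a covariate, 1395 with only the Xist-low libraries, 217 with the GC-trend offset and 17 without WT 4 and Asxl1Tg 2, and leaving out 1 library gave 0 to 1638. For the interaction the count of 0 became 52 with DESeq2, 4 with limma-voom, 1 with no filter and 13 with only the Xist-low libraries, and leaving out 1 library gave 0 to 7. The causes were not tested. No called gene among those named changed sign in any alternative run. Of those not called, Matn4 (-0.28) was at 0.27 without Asxl1Tg 3 and at 0.20 with only the Xist-low libraries, and Asxl1 (-0.02) at 0.00 without Asxl1Tg 4. With the replicate number as a block, 240 genes were called in DM versus Asxl1Tg, 194 of them among the 245, 952 in Srsf2P95H versus WT and 0 in the interaction. The labels do not state whether the numbers pair the samples. Same-numbered DM and Asxl1Tg libraries deviated from their group means with correlations of -0.295, 0.218, -0.145 and -0.006. None of these libraries correlated best with the library of its own number in the other group. These few correlations cannot exclude a pairing, and none was taken for Srsf2P95H and WT. With 4 mice a group, the median SE of 0.0981 for genes above 10 CPM limits what small changes can be told from 0.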
